A study of Mus musculus with 14 samples.

Results

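The genes described here encode the proteins of the cytosolic ribosome. They were chosen by symbol: protein-coding genes named Rpl or Rps followed by a digit, together with Rplp0, Rplp1, Rplp2 and Rpsa. The ribosomal S6 kinases, Rps19bp1 and genes whose symbol ends in -ps were left out. This gave 85 genes of the 55487 in the table, 52 of the large and 33 of the small subunit. Symbols and gene types came from GENCODE M21 on GRCm38. Of the 85 genes, 83 had enough counts to be tested. Rpl10l and Rpl3l did not, and were at or under 1.33 CPM (counts per 1e6 of the library total scaled by TMM, the trimmed mean of M-values) in every library.

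RNA was measured in 14 libraries, each made from up to 100 mast cells sorted from both ears of mice. Libraries 1 to 5 were skin-resident cells of untreated mice (untreated resident, 5 libraries). Libraries 6 to 10 were the resident cells of mice given MC903 (MC903 resident, 5 libraries), and libraries 11, 13, 14 and 15 were cells of MC903-treated mice with the label bone marrow mast cells (MC903 bone marrow, 4 libraries). MC903 is calcipotriol, a vitamin D analogue that produces an atopic dermatitis-like inflammation when put on mouse skin. The sort is described as taking resident cells and cells positive for integrin β7, so the bone marrow group is called by its label here. The labels give no genotype, strain, age, sex, dose or duration, and do not say whether libraries came from separate mice. P-values therefore measure the spread between these libraries, which may be technical.

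Each ribosome joins a small subunit, which reads the messenger RNA, to a large subunit, which forms the peptide bond. Cells make the ribosomal proteins in near-equal numbers, and most of their messenger RNAs begin with a run of pyrimidines (the 5′ TOP motif) through which mTORC1 signalling controls their translation. Mast cells are long-lived tissue cells filled with protease granules, and they arise from progenitors that enter the tissue from blood.

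The libraries held 13068078 to 31781926 counts. The 11 mast cell markers examined summed to between 89648 and 163451 CPM in every library, and none was at 0 in a whole group. The 6 macrophage and dendritic cell markers summed to 30.8 to 88.6 CPM in untreated resident, 30.02 to 160.1 CPM in MC903 resident and 22.3 to 10747 CPM in bone marrow libraries. The highest value was that of library 15, where Lyz2 was at 4838 CPM and C1qa at 789.6 CPM. By edgeR, 1 of the 5 macrophage and dendritic cell markers tested was called higher in bone marrow against untreated. The 3 basophil markers found, of 4 looked for, summed to 481.8 to 738 CPM, 435 to 666 CPM and 271 to 1513 CPM. Among them Cd200r3 was at 224 to 713 CPM over all libraries. In library 11 Mcpt8 was at 980.2 CPM, Cd200r3 at 527.6 CPM and Prss34 at 4.78 CPM. The 3 endothelial markers summed to 0.285 to 6.35 CPM, 4.47 to 14.9 CPM and 7.47 to 39.9 CPM, without overlap between untreated and bone marrow libraries. Pecam1 was the endothelial marker called higher in bone marrow against untreated by edgeR, while Cdh5 was at 0.0838 CPM in library 11 and at 0 in the other bone marrow libraries. The 6 T cell markers summed to 0.0751 to 5.95 CPM, 4.23 to 43.9 CPM and 3.10 to 84.1 CPM, with Cd4 at 80.2 CPM in library 13. In that library Trac was at 3.90 CPM, and Cd3e, Cd3g, Cd3d and Lck were at 0. The sums for keratinocyte, fibroblast and neutrophil markers were at most 8.84, 32.0 and 74.9 CPM in any library. The part of these markers in the results below was not tested. Counts of genes called in the bone marrow group are therefore also given without library 15 and without library 11. Mitochondrial genes took 1.44% ± 0.183 (SD, n = 5), 2.75% ± 0.677 (n = 5) and 2.89% ± 0.955 (n = 4) of the counts in the 3 groups, and the part of this difference in the fold changes below was not tested.

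RefSeq promoters on GRCm38.p6 (250 bases before to 50 after the start) were found for 65 of the 85 members, with 77 entries in all. The windows below run from 30 bases before the start to 30 bases after it, on the strand of the gene. Rps15a, Rps26 and Rpl5 are shown because they hold CTCTTTC (in capitals) and were among the members with the largest rise in bone marrow cells. Rpsa is shown as a member with a rise of the same size that does not hold it, and Rps27 and Rpl7l1 as members that were not called.
Rps15a: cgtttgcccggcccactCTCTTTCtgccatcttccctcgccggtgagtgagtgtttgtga
Rps26: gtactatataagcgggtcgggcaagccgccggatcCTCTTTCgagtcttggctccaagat
Rpl5: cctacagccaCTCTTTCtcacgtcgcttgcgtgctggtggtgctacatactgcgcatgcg
Rpsa: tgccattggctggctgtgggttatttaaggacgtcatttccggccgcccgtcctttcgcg
Rps27: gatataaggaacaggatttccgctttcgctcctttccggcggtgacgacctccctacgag
Rpl7l1: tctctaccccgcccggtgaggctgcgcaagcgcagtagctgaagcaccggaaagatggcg
These lie at chr7:118116118-118116177 (minus strand), chr10:128626477-128626536 (minus), chr5:107900498-107900557 (plus), chr9:120127736-120127795 (plus), chr3:90213619-90213678 (minus) and chr17:46782627-46782686 (minus).

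In all, 6 short motifs were looked for on both strands of the 300 bases, chosen after the promoters and the calls had been seen. CTCTTTC was in 27.3% of the 77 member promoters and in 8.16% of all 32851 promoters. CTTTCC, which overlaps it where CTCTTTC is followed by C, was in 50.65% and 26.6%. CCGGAAG was in 35.1% and 8.86%. AAGATGGC was in 10.4% and 2.75%, CACGTG in 10.4% and 7.15%, and TATAAA in 9.09% and 13.6%. Between the 60 promoters of members called in bone marrow against untreated resident cells and the other 17, the motifs went in different directions: CTCTTTC was in 35% and 0%, CTTTCC in 45% and 70.6%, CCGGAAG in 38.3% and 23.5%, AAGATGGC in 8.33% and 17.6%, CACGTG in 10% and 11.8%, and TATAAA in 10% and 5.88%. A match is a description of letters and was not tested as a site.

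Ribosomal protein genes took a larger share of the counts in bone marrow cells than in untreated resident cells. The share was 1.36, 1.67, 1.35, 1.65 and 1.74% in untreated resident libraries 1 to 5. It was 1.86, 1.88, 2.72, 2.01 and 1.64% in MC903 resident libraries 6 to 10, and 4.18, 3.03, 2.91 and 2.61% in bone marrow libraries 11, 13, 14 and 15. All bone marrow libraries lay above all untreated ones, while library 15 lay below library 8, the highest of the MC903 resident libraries. The means were 1.55% ± 0.185 (SD, n = 5), 2.02% ± 0.413 (n = 5) and 3.18% ± 0.689 (n = 4). With mitochondrial genes left out of the total they were 1.57%, 2.08% and 3.28%. These shares are of all counts in a library, and bulk data cannot tell fewer cells of a type from less RNA per cell.

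Both subunits showed this order of means. Large subunit genes took 0.912% ± 0.107, 1.16% ± 0.233 and 1.79% ± 0.383 of counts in the 3 groups, and small subunit genes took 0.640% ± 0.0790, 0.862% ± 0.181 and 1.39% ± 0.309. Summed counts per kilobase of large over small subunit genes gave a ratio of 1.63 ± 0.0325 in untreated resident, 1.58 ± 0.0447 in MC903 resident and 1.51 ± 0.0614 in bone marrow libraries. The length in the table joins all annotated exons of a gene, with a median of 1739 bases in members against 886 in a single reference transcript, and with the reference length the ratio was 1.29, 1.28 and 1.23. With the median over members in place of the sum the ratio lay under 1 (0.698, 0.699 and 0.669). The sums run over 52 large and 33 small subunit genes, so a summed ratio above 1 does not show a higher level per gene. By the summed ratio with joined exon length, untreated resident libraries ran from 1.605 to 1.684 and bone marrow libraries from 1.449 to 1.596, without overlap. MC903 resident libraries ran from 1.507 to 1.622 and overlapped both. With the reference length untreated resident and bone marrow libraries overlapped too.

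**Figure D1:**
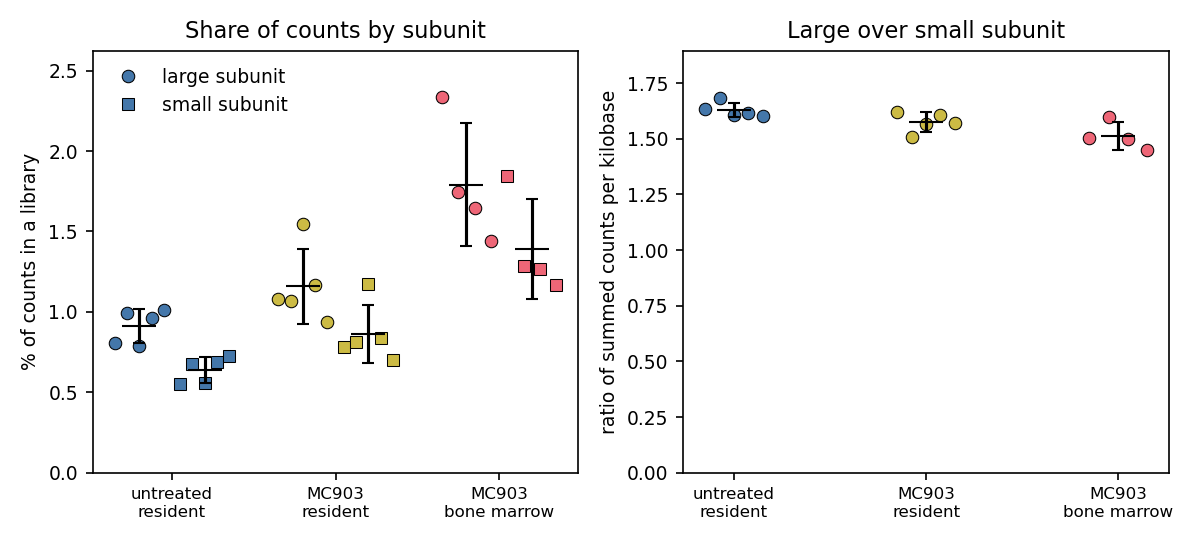
Left, percent of the counts of each library in large (circles) and small (squares) subunit genes, by group; right, ratio of summed counts per kilobase of large over small subunit genes. Points are libraries and bars show mean ± SD; library 11 is highest for both subunits, and the ratio stays between 1.45 and 1.68 in the 14 libraries.

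Against untreated resident cells, bone marrow cells had higher levels of most ribosomal protein genes. These groups differ in both treatment and cell label, with no untreated bone marrow group, so the effects of treatment and cell population cannot be told apart. Of the 83 members tested, 66 rose and none fell (edgeR quasi-likelihood test, adjusted p under 0.05), where 3.49% of all 21014 genes tested were called higher and 3.37% lower. At an unadjusted p under 0.05 edgeR had 72 members higher and 0 lower, and the DESeq2 Wald test and limma voom called 70 and 72 higher and 0 lower. By subunit, 38 of 50 large and 28 of 33 small subunit genes rose. The median log2 fold change of members was 1.05, a 2.07-fold rise, and that of all genes was -0.14. It was 1.06 for large and 1.05 for small subunit genes. In 64 members the bone marrow libraries lay wholly above the untreated ones, which 5.13% of all genes showed, and in none wholly below (5.28% of all genes). Among the 2049 genes with a mean level inside the 10th to 90th percentile of the members, 14.3% were called higher and 14.5% lower, and the median was -0.05.

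Among small subunit genes, Rps19 (ENSMUSG00000040952, chr7:24884371-24889806) had the largest rise. Rps19 helps mature the small subunit RNA, and its loss of function is a known cause of Diamond-Blackfan anaemia. Its level was 135, 193, 151, 192 and 242 CPM in untreated resident libraries, 243, 216, 321, 249 and 236 CPM in MC903 resident and 798, 508, 575 and 568 CPM in bone marrow libraries. The 4 bone marrow libraries lay above all 10 others. The log2 fold change against untreated resident was 1.74 ± 0.200 (SE; edgeR adjusted p = 1.05e-05), and 1.28 ± 0.199 against MC903 resident (adjusted p = 0.00101).

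Rpsa, the laminin receptor homologue of the small subunit, was at 266, 309.9, 245, 363 and 402 CPM in untreated resident libraries. It was at 457, 435, 506, 420.4 and 377 CPM in MC903 resident and at 1536, 967, 1012 and 692 CPM in bone marrow libraries. Again no bone marrow library overlapped the others, and library 11 was the highest. The log2 fold changes were 1.73 ± 0.209 against untreated (edgeR adjusted p = 1.83e-05) and 1.26 ± 0.208 against MC903 resident (adjusted p = 0.00164).

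Rps15a, also of the small subunit, was at 67.2, 79.3, 71.6, 90.4 and 97.4 CPM in untreated resident, 119.7, 85.8, 176, 142 and 117 CPM in MC903 resident and 355, 264, 229 and 208 CPM in bone marrow libraries. Only library 7 of the MC903 resident libraries lay within the untreated range, and all bone marrow libraries were above the resident ones. The log2 fold change was 1.70 ± 0.224 against untreated (edgeR adjusted p = 4.7e-05). Rps15 (1.51 ± 0.198) and Rps26 (1.48 ± 0.249) were also among the 10 largest rises, each called whichever library was left out.

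Of the large subunit, Rpl10a had the largest rise that was called. It sits at the L1 stalk, where spent transfer RNA leaves. Its level was 54.5, 64.2, 52.4, 67.0 and 64.6 CPM in untreated resident libraries, 99.0, 69.3, 115, 109.7 and 89.7 CPM in MC903 resident and 278, 181, 176 and 151 CPM in bone marrow libraries. The 3 groups did not overlap, with MC903 resident in between. Its log2 fold change was 1.70 ± 0.217 in bone marrow against untreated (edgeR adjusted p = 3.57e-05), and 7.78% of the reads on it and its pseudogenes lay on the pseudogenes. Rpl39, a small protein of the exit tunnel (1.47 ± 0.258), and Rpl5, which carries 5S RNA into the large subunit (1.42 ± 0.216), were next among the 10 largest rises.

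Of the 3 stalk proteins, which recruit elongation factors to the large subunit, Rplp0 alone was called against untreated. It was at 509, 658, 583, 666 and 899 CPM in untreated resident libraries and 526, 547, 597, 792 and 541 CPM in MC903 resident libraries. In bone marrow it was at 1309.5, 1330.1, 1178 and 849 CPM, with library 15 below untreated library 5. Its log2 fold change against untreated was 0.82 ± 0.192 (edgeR adjusted p = 0.0105). Rplp1 (0.60 ± 0.214, adjusted p = 0.104 by edgeR) and Rplp2 (0.89 ± 0.275, adjusted p = 0.056) were not called. Of the members read as reference genes in other assays, Rps18 rose (1.33 ± 0.221, edgeR adjusted p = 0.000563), as did Rps27a, a fusion with ubiquitin (1.02 ± 0.207, adjusted p = 0.0034).

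**Figure D2:**
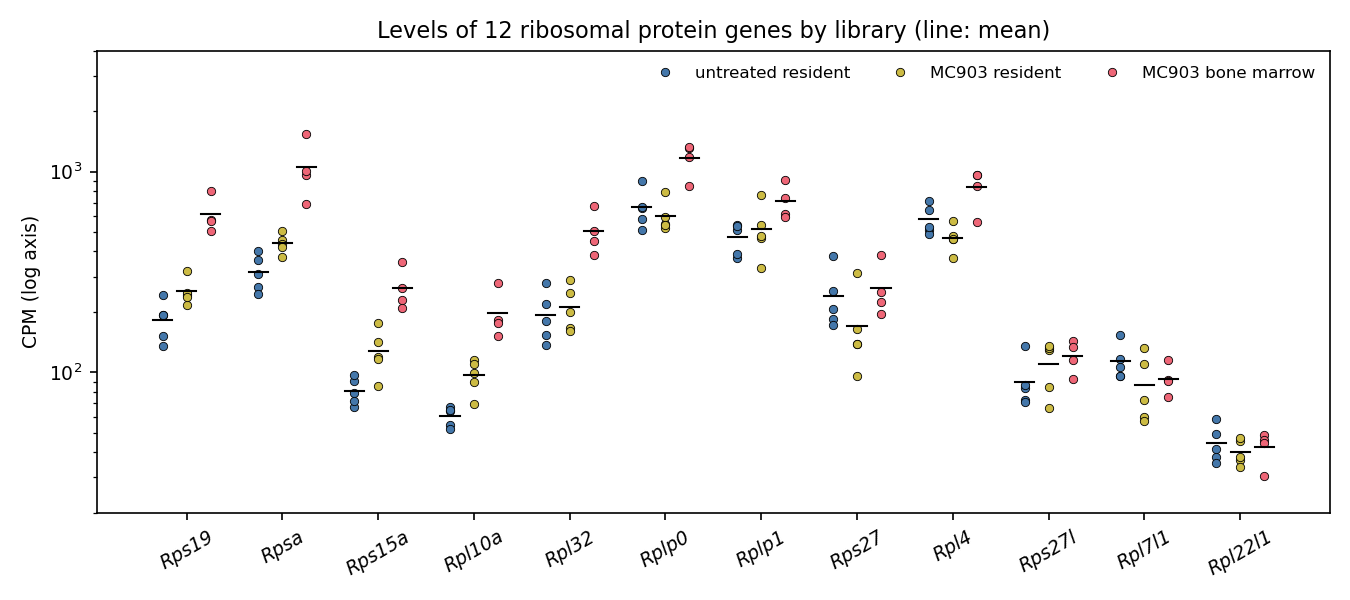
Levels (CPM, log axis) of 12 ribosomal protein genes in the 14 libraries, by group; points are libraries and lines are group means. For Rps19, Rpsa, Rps15a and Rpl32 every bone marrow library lies above the 10 resident ones, while the groups overlap for Rps27 and for the paralogs Rps27l, Rpl7l1 and Rpl22l1.

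Of the members tested, 17 were not called against untreated. All 6 tested paralogs, copies of a ribosomal protein gene with their own symbol, were among them. Rpl22l1 was at 44.7 ± 9.57 CPM (SD, n = 5) in untreated resident, 40.1 ± 5.83 CPM (n = 5) in MC903 resident and 42.4 ± 8.24 CPM (n = 4) in bone marrow cells. Its parent Rpl22 was at 47.0 ± 13.6, 66.4 ± 19.6 and 113 ± 38.4 CPM. The parent rose against untreated (1.26 ± 0.297, edgeR adjusted p = 0.0104), while the value for Rpl22l1 was -0.07 ± 0.260 (adjusted p = 0.921), with a sign that depended on the settings. Rpl7l1 was at 114 ± 24.2, 86.4 ± 33.0 and 93.0 ± 16.3 CPM (-0.29 ± 0.258 against untreated) and its parent Rpl7 at 387 ± 38.6, 388 ± 53.1 and 707 ± 85.3 CPM (0.87 ± 0.160, edgeR adjusted p = 0.00144). The difference between a paralog and its parent was not tested.

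Rps27l, a paralog known as a target of p53, was at 89.8 ± 26.2, 109.5 ± 31.9 and 121 ± 22.1 CPM, with a log2 fold change of 0.43 ± 0.252 in bone marrow against untreated (edgeR adjusted p = 0.352). Its parent Rps27 was not called either. Rps27 was at 184, 253, 172, 208 and 381 CPM in untreated resident, 139, 95.8, 314, 165 and 139 CPM in MC903 resident and 386, 253, 225 and 194 CPM in bone marrow libraries. Of the MC903 resident libraries only library 8 lay above the lowest untreated and bone marrow libraries, while the untreated and bone marrow libraries overlapped. The log2 fold change in bone marrow against untreated was 0.14 ± 0.302 (adjusted p = 0.855). The paralogs Rpl36al, Rps27rt and Rpl39l were at 0 to 10.5 CPM in every library.

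Some of the other members that were not called were at low levels or have pseudogenes with reads. Called members have such pseudogenes too, with a share of 7.78% for Rpl10a. The part of pseudogene reads in the calls was not tested. Of the reads on Rps10 and its 4 pseudogenes, 81.1% lay on the pseudogenes, and Rps10 itself was at 6.03 CPM or less. For Rpl23a the share was 15.6%. Rpl13a was at 1.64 to 10.8 CPM and Rpl24 at 4.69 to 21.3 CPM. How reads that map to several genes were counted is not given in the sources used here, so the levels of Rps10, Rpl23a and Rpl13a, which have annotated pseudogenes, are uncertain. Over all members, pseudogenes held 1.23 ± 0.361, 1.29 ± 0.217 and 1.21 ± 0.273 reads per 100 member reads in the 3 groups. All pseudogene values here cover only genes with a symbol ending in -ps (300 genes), and pseudogenes with other symbols were not counted. The rest had higher levels and positive values that missed the threshold, such as Rpl3 (0.59 ± 0.182, edgeR adjusted p = 0.0567) and Rpl4 (0.53 ± 0.188, adjusted p = 0.101). Rpl4, Rpl24 and Rpl23a are named here after their values were seen.

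**Figure D3:**
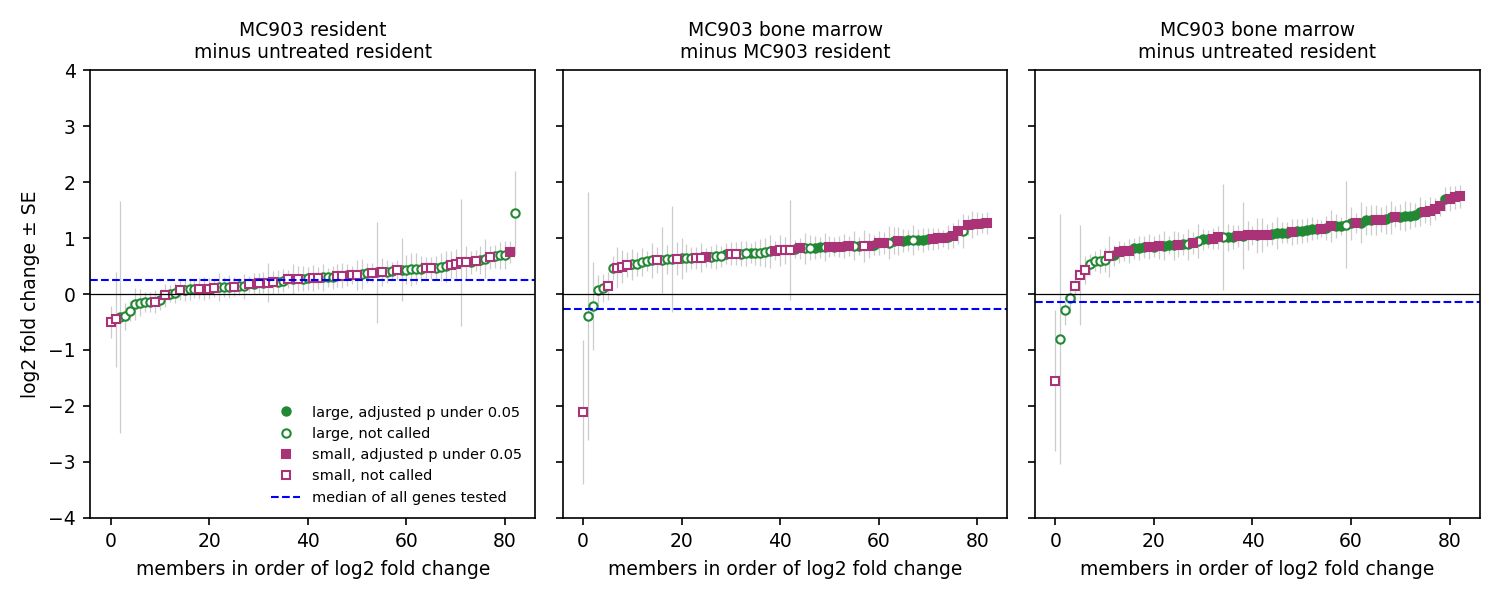
Log2 fold change ± SE of the 83 tested members in each comparison, ordered by value; filled symbols were called (edgeR adjusted p under 0.05), circles are large and squares small subunit genes, and the dashed line is the median of all genes tested. In bone marrow against untreated resident cells 66 members are filled, against 1 in MC903 resident minus untreated.

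Within MC903-treated skin, part of the ribosomal protein genes had higher RNA levels in bone marrow than in resident cells. Of 83 members, 36 rose, 47 were not called and none fell, where 1.32% of all genes tested were called higher and 0.952% lower. They were 18 of 50 large and 18 of 33 small subunit genes. The median log2 fold change was 0.78 (0.74 for large and 0.82 for small subunit genes), against -0.28 for all genes. Among the 2049 genes of like level, as defined above, 7.27% were called higher and 3.07% lower, and the median was 0.23. In 40 members the groups did not overlap, with bone marrow higher, which 3.97% of all genes showed, and in none was it wholly lower (4.32% of all genes). A further 33 members had an unadjusted p under 0.05 and missed the adjusted threshold, so that 69 did in all, with 0 lower. The DESeq2 Wald test and limma voom called 37 and 60 members higher and 0 lower. This comparison and the one above share the bone marrow libraries: 34 members were called in both, 32 only against untreated and 2 (Rpl3 and Rpl4) only against MC903 resident.

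Among the 10 largest rises in this comparison were those of Rps19 and Rpsa, given above, and of Rpl32, a large subunit protein. Rpl32 was at 136, 218, 154, 179.9 and 279 CPM in untreated resident, 166, 160.0, 288, 248 and 201 CPM in MC903 resident and 675, 507, 449 and 385 CPM in bone marrow libraries. The resident groups overlapped over most of their range, and the bone marrow libraries lay above both. The log2 fold change against MC903 resident was 1.25 ± 0.236 (edgeR adjusted p = 0.00495). Rps18 (a 2.17-fold rise), Rps15a (1.05 ± 0.222), Rpl10a (1.02 ± 0.215) and Rps3 (0.997 ± 0.151) were also among the 10.

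Rps3, at the messenger RNA entry channel, was at 429.5, 472, 439, 514 and 575 CPM in untreated resident, 543, 507, 583, 562 and 547 CPM in MC903 resident and 1212, 1183, 1007 and 976 CPM in bone marrow libraries. Its values varied little within a group, and no bone marrow library overlapped the others.

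How many members passed here depended on single libraries and settings, though none fell in any of them. The count was 15 without library 11 (median 0.59), 17 without library 6, 20 without library 7, and 22 without library 9 or library 13. It was 46 without library 15, the library with macrophage markers, with a median of 0.89. The median of all genes was -0.48 without library 11 and -0.84 without library 15. Against untreated the count was 48 without library 11 (median 0.89) and 70 without library 15 (median 1.16). The median of all genes against untreated was -0.15 and -0.62 in these fits, which tested 24513 and 24370 genes. In all 9 fits that left out 1 library, 13 members were called in this comparison and 48 against untreated.

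Between MC903 resident and untreated resident cells, 1 member was called higher and none lower, where 0.571% of all genes tested were called higher and 1.68% lower. The count was 0 without library 1, 2, 3, 8, 9 or 10 and 2 without library 7. The median log2 fold change of members was 0.29 and that of all genes 0.24, with 0.28 for large and 0.29 for small subunit genes. On leaving out 1 library the member median ranged from 0.18 to 0.41 and that of all genes from 0.14 to 0.36, both lowest without library 8. Among the 2049 genes of like level the median was -0.23, with 1.95% called higher and 10.6% lower. When the genes tested were limited to a mean of 10 CPM or more, 15 members were called, with a member median of 0.49 and a median of all genes of 0.03. By edgeR, unadjusted p was under 0.05 for 17 members, with 0 of them lower, and the DESeq2 Wald test and limma voom called 12 and 2 members higher and 0 lower. MC903 resident libraries lay wholly above the untreated ones in 8 members (2.17% of all genes) and wholly below in 1, the paralog Rps27rt (3.16% of all genes). Rpl10a, whose levels are given above, was among the 8, with a log2 fold change of 0.67 ± 0.204 (edgeR adjusted p = 0.0967). With the gene length offset the member median turned to -0.12.

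The order of levels among the members was alike in the 3 groups. Over 74 members at a mean of 10 CPM or more that are not paralogs, Pearson's r of log2 mean RPKM (CPM per kilobase of joined exon length) was 0.982 between the resident groups, 0.971 between untreated resident and bone marrow and 0.986 between MC903 resident and bone marrow. These points share gene lengths and base composition, and r is given as a description. The SD of the difference in log2 RPKM over members was 0.247, 0.305 and 0.194. Rplp1 had the highest mean RPKM over all libraries (1112), followed by Rpl36 (535), Rplp0 (473), Rps3a1 (428) and Rpl41 (428). Divided by the reference transcript length, Rplp1 (1112) stayed highest and Rpl10 (1028) came next.

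**Figure D4:**
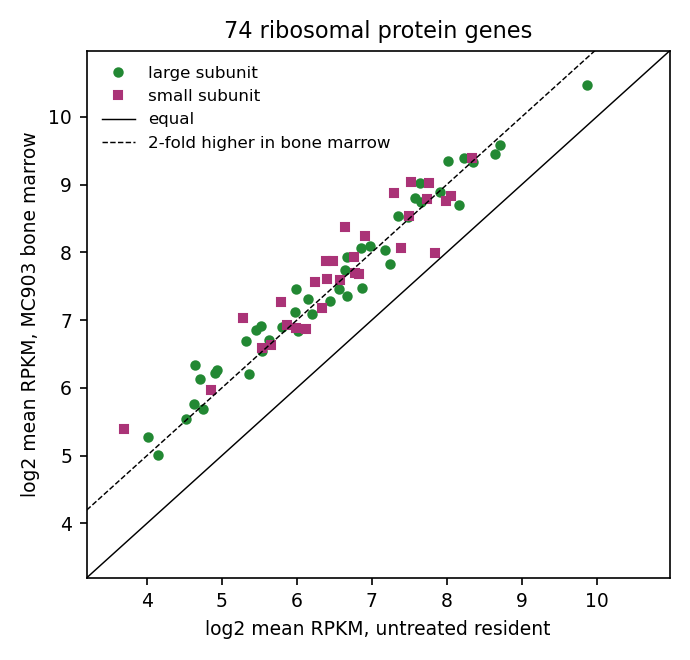
Log2 mean RPKM of 74 ribosomal protein genes in untreated resident (x axis) and bone marrow cells (y axis), with the lines of equal level and of a 2-fold rise. Points of both subunits lie along the 2-fold line (Pearson's r 0.971), and Rps27 lies closest to the line of equality.

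Within a library, member levels deviated with transcript length by differing amounts. Pearson's r of a member's deviation from its mean with log2 reference length ran from -0.434 in library 8 to 0.345 in library 7, both MC903 resident, over 74 members. The median log2 fold change in bone marrow against untreated was 1.10 in the shorter 37 members and 1.06 in the longer 37, and 0.75 and 0.84 against MC903 resident.

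Of 3 tested ribosomal proteins that carry other symbols, such as Fau and Rack1, edgeR called 1 in each comparison. Rack1, a scaffold on the head of the small subunit, was that gene in all 3. It was at 238 ± 14.2 CPM (SD, n = 5) in untreated resident, 376 ± 24.3 CPM (n = 5) in MC903 resident and 682 ± 83.8 CPM (n = 4) in bone marrow cells. The log2 fold changes were 0.66 ± 0.143 between the resident groups (edgeR adjusted p = 0.0122), 0.86 ± 0.150 against MC903 resident (adjusted p = 0.00297) and 1.52 ± 0.151 against untreated (adjusted p = 2.01e-06). Without library 11 or library 15 Rack1 was called in both bone marrow comparisons, at 0.75 and 0.94 against MC903 resident. Fau (0.75 ± 0.244 against untreated) was not called by edgeR (adjusted p = 0.0716) or DESeq2 and was called by limma voom (0.82, adjusted p = 0.0281).

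Other genes of translation were counted against the shares of all genes called by edgeR. Against untreated these shares were 3.49% (higher) and 3.37% (lower) for bone marrow cells, and against MC903 resident 1.32% and 0.952%. Of 10 elongation and release genes, 4 rose and 1 fell in bone marrow against untreated: Eef1g, a subunit of the factor that reloads eEF1A, rose by 1.71 ± 0.253 (edgeR adjusted p = 0.000163) and Etf1, the release factor, fell by 1.28 on the log2 scale (SE 0.307). Against MC903 resident, Eef1a1 (0.90 ± 0.163) and Eef2 (0.79 ± 0.175) rose and none fell. Without library 11 the risers were 2 against untreated and 1 against MC903 resident, and without library 15 they were 4 and 3. Of 37 initiation genes, 5 rose and 5 fell against untreated. The risers were subunits of eIF3, with Eif3i at 1.20 ± 0.180 (edgeR adjusted p = 0.000183), and those that fell were Eif1, Eif4a1, Eif4a2, Eif5 (-1.74 ± 0.237, adjusted p = 6.45e-05) and Eif5b. Against MC903 resident edgeR called 4 higher (Eif3b, Eif3h, Eif3i and Eif6) and 0 lower. At an unadjusted p under 0.05 it had 16 higher and 1 lower. DESeq2 called 5 higher and 1 lower and limma voom 10 and 0. Without library 11 edgeR called 2 initiation genes higher and 5 lower against untreated and 3 higher against MC903 resident, and without library 15 it called 5 higher and 3 lower, and 6 higher. In MC903 resident against untreated 4 fell (Eif1, Eif4a1, Eif4e and Eif5) and none rose, where 1.68% of all genes were called lower. At an unadjusted p under 0.05 edgeR had 13 initiation genes lower and 0 higher there. The list medians in bone marrow against untreated were 0.52 for elongation and 0.10 for initiation. They were 0.51 and 0.16 without library 11, and 0.54 and 0.26 without library 15.

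Genes that build ribosomes were called about as often as all genes in bone marrow against untreated (3.49% higher and 3.37% lower). Of 67 tested biogenesis and RNA polymerase I genes, 2 rose (Nop16 and Bms1) and 3 fell (Ncl, Utp4 and Sbds) there, with a median of -0.26 against -0.14 for all genes. The counts were 1 and 4 without library 11 and 3 and 2 without library 15. The list median was then -0.29 and -0.08, where that of all genes was -0.15 and -0.62. DESeq2 called 4 higher and 7 lower, and limma voom 4 and 4. Against MC903 resident edgeR called 0, with 9 higher and 1 lower at an unadjusted p under 0.05, where DESeq2 called 2 higher and 1 lower and limma voom 2 higher, and the median was 0.32. Without library 11 edgeR called 0 there, and without library 15 it called 1 higher. In MC903 resident against untreated, where 1.68% of all genes were called lower, edgeR called 5 lower (Ncl, Gnl2, Utp4, Riok2 and Sbds) and 0 higher. At an unadjusted p under 0.05 edgeR had 22 lower and 1 higher. Of all 21014 genes tested, 2654 were under it in either direction. DESeq2 called 5 lower and 1 higher and limma voom 9 lower and 0 higher. Sbds, which frees the large subunit for joining, was at -1.71 ± 0.224 (edgeR adjusted p = 0.000135). Of 17 genes of the mTORC1 and S6 kinase axis, edgeR called 2 lower (Rheb and Pdcd4) and 0 higher against untreated, with 2 higher at an unadjusted p under 0.05. DESeq2 called 2 lower and 1 higher, limma voom 1 lower and 1 higher, and edgeR 1 lower without library 11 or library 15. Against MC903 resident edgeR called 0 of them, also without library 11 or library 15, with 1 higher at an unadjusted p under 0.05, and DESeq2 and limma voom called 0. Of 14 tested snoRNA hosts and other genes with a 5′ TOP motif, edgeR called 0 in either bone marrow comparison. At an unadjusted p under 0.05 it had 3 higher against MC903 resident and 1 higher against untreated, and limma voom called 2 and 1 higher and DESeq2 0 and 1. Without library 11 or library 15 edgeR called 0 in both comparisons. Of 77 mitochondrial ribosomal protein genes, 7 rose and none fell against untreated by edgeR, against 3.49% and 3.37% of all genes, while DESeq2 called 18 and limma voom 14 higher and 0 lower. Without library 11 the count was 4 and without library 15 it was 7. Against MC903 resident edgeR called 0 of the 77, also without either library, with 6 higher at an unadjusted p under 0.05, where DESeq2 called 2 and limma voom 1 higher. The largest called rise was that of Mrpl57, at 1.45 ± 0.256 (edgeR adjusted p = 0.000954), and the list median was 0.49.

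**Figure D5:**
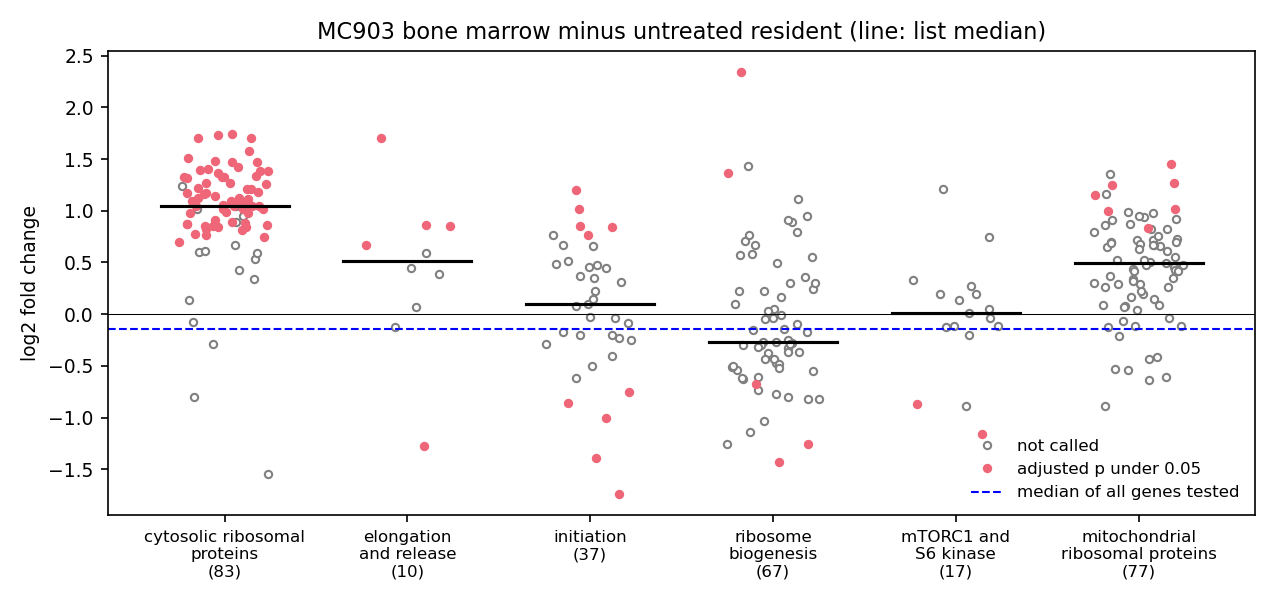
Log2 fold change in bone marrow against untreated resident cells for the tested genes of 6 lists (number of genes under each name); filled points were called (edgeR adjusted p under 0.05), thick lines are list medians and the dashed line is the median of all genes tested. The median is 1.05 for cytosolic ribosomal proteins, 0.49 for mitochondrial ribosomal proteins and -0.26 for ribosome biogenesis. Without library 15 (not drawn) the biogenesis median was -0.08 and that of all genes -0.62, so that biogenesis lay above all genes.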

How the data were processed

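RNA of sorted mast cell pools was amplified with SMART-Seq HT and tagged with Nextera XT, per the labels' protocols. The submitters' processing notes name STAR, featureCounts and mm10. The authors deposited raw counts per gene, with joined exon length, per the file headers. Strand setting and treatment of reads that map to several genes are not given in the sources used here. Totals were 13068078 to 31781926 counts per library. Amplified reads are not independent molecules, so depth describes counting error only. Of 55487 gene identifiers, 55394 matched GENCODE M21 without version.

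Genes were filtered with filterByExpr (minimum count 10, minimum total 15), leaving 21014, scaled by TMM and fitted in 1 model of 3 groups with edgeR 4.0.16 (glmQLFit, robust; glmQLFTest) in R 4.3.3. P-values were adjusted by Benjamini-Hochberg over all genes tested, and an adjusted p under 0.05 was called. The script was tested on simulated data. Alternatives used DESeq2 1.42.0, limma 3.58.1, other scalings, filters and offsets, and left out each library. Added after seeing the data were the GC content offset, the share without the 4 most counted members of each subunit and the reference transcript length. None of the 26 pairs of libraries within a group agreed within counting noise.

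The members and lists were chosen with earlier results of these data known, so no test was made over a list. Named members were, per comparison, the 10 called with the largest rise and fall, all paralogs with their parents, the 5 highest and lowest by RPKM, and stalk, reference and ubiquitin-fusion genes. From other lists at most 5 called genes per comparison were named. Some genes that this rule names are not reported here.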

Additional observations from a re-analysis of the deposited data

Results flagged for a closer look

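Of 116 checks of the highest or lowest library in a group (named members, the share of counts and the subunit ratio), 6 found a library far from the others of its group, where chance flags about 1 in 20. Rpl13a was at 10.8 CPM in bone marrow library 13, where the rest of that group ranged from 3.502 to 4.65 CPM. Rpl36a was at 186 CPM in bone marrow library 11, against 96.6 to 109.9 CPM. Rpl36al was at 10.5 CPM in MC903 resident library 6, against 1.51 to 2.78 CPM. Rpl39l was at 2.18 CPM in bone marrow library 11 and at 0 in the other 3. Rplp0 was at 792 CPM in MC903 resident library 9, against 526 to 597 CPM. Rps27l was at 135 CPM in untreated resident library 5, against 71.2 to 86.9 CPM.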

How the results depend on the processing

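No paired analysis was possible because the labels do not say which libraries came from the same mouse. MC903 resident and bone marrow libraries may share mice, and were fitted as unpaired. In every alternative run, no member was called lower, and the 18 named members called against MC903 resident and the 24 called against untreated kept their sign; of named members not called, 18 of 35 changed sign under at least 1 setting in MC903 resident minus untreated, 5 of 18 and 4 of 12 in the bone marrow comparisons. Except where its construction shows it (fewer samples or genes), the cause of a change was not tested.

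In MC903 resident minus untreated, members called were 5 with DESeq2 size factors, 6 with TMM from genes of at least 10 CPM, 15 with the filter at 10 CPM, 12 with the DESeq2 Wald test, 2 with limma voom, and 0 with the gene length or GC content offset, the median being -0.12 with the first. Genes called were 1063 with DESeq2, 1358 with voom, 305 with the length and 315 with the GC offset. In bone marrow minus MC903 resident, members called were 23 with DESeq2 size factors, 23 with TMM from genes of at least 10 CPM, 60 with voom, 71 (median 1.59) with the length offset, 55 (median 1.19) with the GC offset and 21 with only the 2 groups fitted. Genes called were 748 without a filter, 1713 with DESeq2, 2017 with voom, 1443 with the length offset, 1238 with the GC offset and 315 with 2 groups. In bone marrow minus untreated, genes called were 2709 with DESeq2 and 2194 with voom, and the member median was 1.48 with the length offset. Higher and lower calls split 120 to 353, 277 to 200 and 734 to 709 in the 3 comparisons. They split 39 to 266, 1279 to 164 and 939 to 313 with the length offset, 42 to 273, 1077 to 161 and 753 to 337 with the GC offset, 596 to 467, 444 to 1269 and 1261 to 1448 with DESeq2, 661 to 697, 672 to 1345 and 1081 to 1113 with voom, and 309 to 337, 265 to 293 and 950 to 813 with the filter at 10 CPM. In the first 2 comparisons DESeq2 size factors gave 207 to 294 and 167 to 242, and TMM from genes of at least 10 CPM 250 to 266 and 178 to 254. These 2 scalings moved the median of all genes in the first comparison from 0.24 to 0.40 and 0.45, and that of members from 0.29 to 0.44 and 0.50.

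Leaving out each library, members called ranged from 0 to 2, 15 to 46 and 48 to 70, and genes called from 312 to 516, 302 to 704 and 1140 to 1549. In bone marrow minus untreated, Rpl22l1 turned to 0.0651 with voom, 0.400 with the length and 0.739 with the GC offset, and ranged from -0.160 to 0.0608 on leaving out a library. Rpl7l1 turned to 0.0455 and 0.0349 with the 2 offsets. Rps27 ranged from -0.109 without library 11 to 0.373. Rpl39l ranged from -7.36 without library 11, a fitted value against libraries at 0 and no bound, to 0.271. Without the 4 most counted members of each subunit the share of counts was 1.14, 1.54 and 2.36% in the 3 groups. The subunit ratio was 0.698, 0.699 and 0.669 by median RPKM, 1.43, 1.35 and 1.29 without length, 1.29, 1.28 and 1.23 with the reference length, and 1.67 in untreated resident without paralogs. Members under or near 10 CPM rest on fewer counts, such as 29 to 311 per library for Rpl13a and 0 to 66 for Rpl39l. The part of counting error in their values was not tested.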
